A study of Equus caballus with 23 samples.

Results

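The genes described here stood highest in the gluteus medius, a large locomotor muscle of the hindquarter, of Arabian horses biopsied after an intense gallop phase of race training. They were chosen by measured values. A gene was taken when it had a symbol, a median of at least 1.5 log2 CPM (counts scaled to library size, on the log2 scale, with a prior count of 2) in the gallop libraries, and a gallop median at least 0.8 log2 units above the medians of both other time points. Symbols beginning with MYH, MYL, TNN, TPM, MYOZ, ATP2A, ACAD, LDH or COL were dropped. The rule left 91 of 11545 tested genes. A further 13 genes that passed the thresholds were dropped by their prefix, the slow myosin heavy chain MYH7 and the slow troponins TNNI1, TNNC1 and TNNT1 among them, and 31 passed without a symbol.

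RNA sequencing of needle biopsies gave 23 libraries. The T0 biopsies were from untrained horses at 2.5 years of age (5 libraries, 3 male and 2 female). Those of T1 were taken at 3 years of age, after the gallop phase and ahead of the flat racing season (8 libraries, 4 male and 4 female). The T2 biopsies were also taken at 3 years of age, when the season ended (10 libraries, 7 male and 3 female). All horses were Arabian, and the labels name no other treatment. The labels number the libraries m1 to m23 and leave unsaid if any horse gave several biopsies. Libraries were therefore treated as unpaired, and p-values measure the spread between them. Age and training cannot be told apart in comparisons with T0.

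Skeletal muscle mixes slow fibres, which are oxidative and resist fatigue, with fast fibres, which contract quickly and rely more on glycolysis. Slow fibres carry their own isoforms of sarcomere and calcium pump proteins, use phospholamban to restrain the calcium pump, and hold more of the machinery for burning fatty acids and ketone bodies. Muscle under load also senses stretch at the Z-disc, the plate that anchors actin filaments, through proteins that shuttle between the sarcomere and the nucleus.

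Total counts ran from 12185608 to 23641809 per library, with the deepest libraries in T1, and intervals were not computed for single values because each time point has replicates. All 10 markers of skeletal muscle fibres were detected, and their summed level was 39000 to 89550 CPM in T0, 66080 to 111700 in T1 and 40820 to 80950 in T2. Taken singly, 0 of the 10 were called higher in T1 than in T0, and CASQ1 was lower (edgeR quasi-likelihood test, adjusted p = 0.0259). None of the 91 genes is on the marker lists used for other cell types, which are short, and the skin and melanocyte list matched MITF alone. Fibroblast markers summed to 160.6 to 422.1 CPM in T0, 127.3 to 241.3 in T1 and 123.7 to 321 in T2, and 2 of the 7 tested (DCN and POSTN) were lower in T1 than in T0. Of the 3 adipocyte markers tested, LPL, which muscle fibres also express, was higher in T1 than in T0 (edgeR quasi-likelihood test, adjusted p = 0.0303). ADIPOQ, which is specific to adipocytes, had a log2 fold change of -1.37 (edgeR adjusted p = 0.121), and FABP4 one of 0.09 (edgeR adjusted p = 0.897). The neutrophil and erythroid lists matched no identifier and were not analysed here. In bulk tissue, fewer cells of a type and less RNA per cell cannot be told apart. CPM values are not divided by gene length, so levels are compared between time points and not between genes.

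Libraries that stood apart touch these results. A fibre score was computed as the mean log2 CPM of 9 slow sarcomere identifiers minus that of 9 fast ones, with none of the 91 genes in it. All 9 slow identifiers passed the thresholds of the rule, however, and were dropped only by their prefix. The score's lists were named by fibre type and not taken by the rule. They were put together with earlier results of these data known, so nothing is read from the higher score in T1. The T0 scores ran from -4.52 to -2.42, the T1 scores from -1.30 to 5.40 and the T2 scores from -4.07 to -1.55, so that T1 did not overlap the other time points. Library m3 of T1 had the highest score, and the next, m11, was at 1.58. In T1, m3 was the highest library for 39 of the 91 genes and m11 for 19, while m6 was the highest for 8 and the lowest for 30. In T2, m23 was the highest for 35 genes and m17 the lowest for 39. The share of mitochondrial transcripts was 35.99% to 54.95% in T0, 44.66% to 56.67% in T1 and 42.53% to 52.26% in T2. The part of fibre makeup, depth and mitochondrial share in the peak was not tested, and the fibre score cannot be told apart from the time point.

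**Figure D1:**
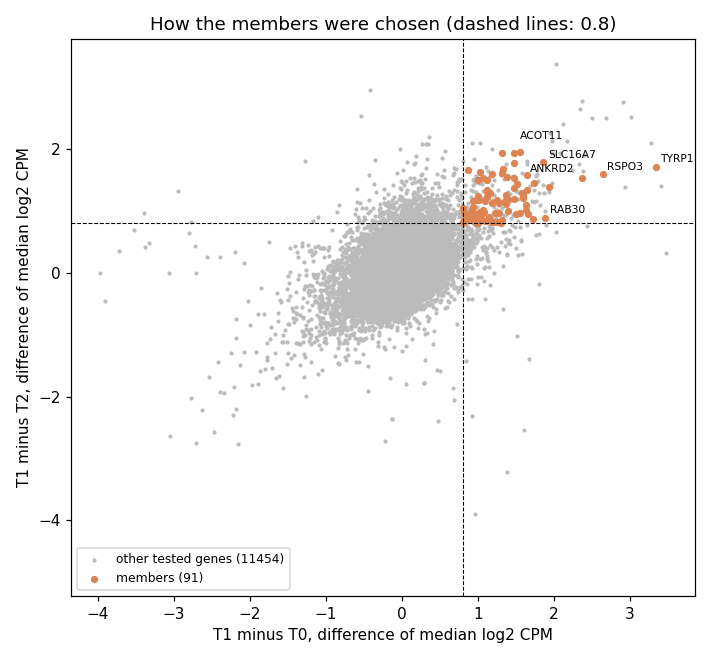
Difference of median log2 CPM between T1 and T0 (horizontal axis) and between T1 and T2 (vertical axis) for each tested gene, with dashed lines at the 0.8 threshold. The 91 chosen genes (orange) lie in the upper right corner, where TYRP1, RSPO3 and ANKRD2 lie far out along the T1 minus T0 axis. Grey points in the same corner are genes without a symbol, with a dropped prefix or with a T1 median under 1.5.

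The gap between the T1 and T0 medians ran from 0.80 to 3.34 log2 units over the 91 genes, with a median of 1.18, and the gap between the T1 and T2 medians ran from 0.80 to 1.96, with a median of 1.10. Just inside the threshold, the lesser of the gaps was 0.805 for DPYSL5, 0.804 for ZBED1 and 0.802 for GPAT3. Just outside it, the lesser gap was 0.798 for CDO1 and 0.797 for BRI3BP. In the edgeR fit 65 of the 91 were called higher in T1 than in T0, against 3.57% of all tested genes, and 87 were called lower in T2 than in T1, against 15.1%. Every T1 library lay above every T0 library for 37 of the genes (1.86% of all tested genes), above every T2 library for 22 (1.45%) and above both for 16 (0.355%). These contrasts chose the genes, so nothing is read from the counts.

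**Figure D2:**
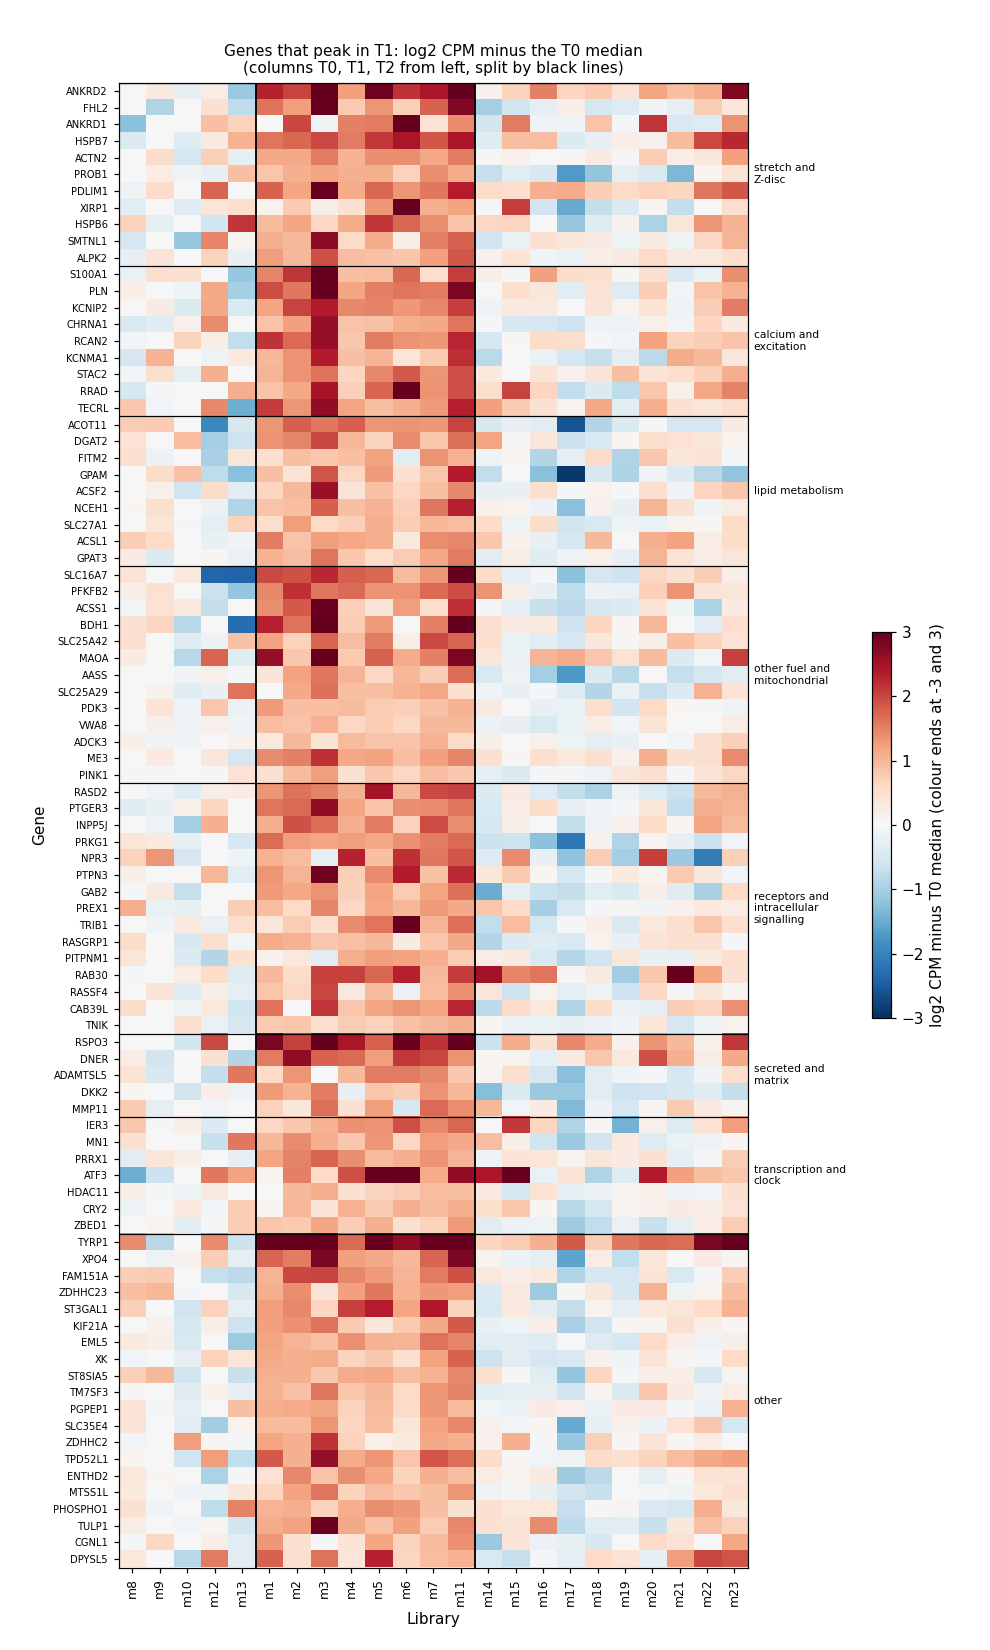
Log2 CPM minus the T0 median of 89 of the 91 genes (rows, grouped by role) in each of the 23 libraries (columns, T0, T1 and T2 from the left, separated by black lines). Red marks values above the T0 median and blue values below it. The T1 columns are red in nearly every row, m3 and m11 most deeply, and in T2 column m17 is the bluest and m23 the reddest.

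Stretch sensors and Z-disc proteins made up 11 of the 91 genes. ANKRD2, an ankyrin repeat protein that responds to stretch and is typical of slow fibres, was at 21.2, 25.7, 17.8, 24.8 and 9.79 CPM in T0 (here and below in the order m8, m9, m10, m12, m13). In T1 it ran from 50.1 to 327 CPM with a median of 110, and in T2 from 23.2 to 147 with a median of 38.2. Every T1 library was above every T0 library, while T2 libraries m16 and m23 reached into the T1 range. The T0 mean was 19.9 ± 6.45 CPM (SD, n = 5), the T1 mean 149.7 ± 94.9 (SD, n = 8) and the T2 mean 49.5 ± 35.9 (SD, n = 10). ANKRD2 lies on chromosome 1 from 31708700 to 31718433, in coordinates of the deposited annotation, for which the labels and file headers name no build.

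ACTN2, the alpha-actinin that crosslinks actin at the Z-disc of every fibre type, was at 739, 1078, 511, 1218 and 605 CPM in T0. It ran from 1529 to 2192 CPM in T1 (median 1797) and from 709 to 1732 in T2 (median 823). The 8 T1 libraries lay close together and above all T0 libraries, and in T2 m23 alone passed the lowest T1 library. FHL2, a LIM domain protein that binds the giant spring titin, was at 1.52, 0.76, 1.53, 2.12 and 0.844 CPM in T0, from 2.56 to 29.9 in T1 (median 4.44) and from 0.697 to 2.58 in T2 (median 1.21). Its T1 libraries lay above all T0 libraries, and m3 was well above the next at 11.1 CPM.

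PDLIM1, a PDZ and LIM protein that binds alpha-actinin, was at 67, 109, 74, 250 and 74.4 CPM in T0, from 161 to 622 in T1 (median 235) and from 106 to 272 in T2 (median 122). Library m12 of T0 overlapped the T1 range. SMTNL1, a smoothelin-like protein of muscle, was at 89.1, 126, 57.1, 348 and 134 CPM in T0, from 145 to 811 in T1 (median 268) and from 84.3 to 254 in T2 (median 149), again with m12 inside the T1 range. The small heat shock proteins HSPB7 and HSPB6, which guard sarcomere proteins, had T1 medians of 83.3 and 67.4 CPM. HSPB7 separated from T0 completely, while HSPB6 in T0 library m13 was as high as the highest T1 library, at 134 CPM. Of the other genes of this group, ALPK2, a kinase of the alpha family, had all T1 libraries above all others (48.3 to 104 CPM), and PROB1 had all T1 libraries (16.4 to 26.7 CPM) above all T2 libraries.

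ANKRD1 and XIRP1 behaved differently from the rest of the group in 1 library. ANKRD1, a cardiac ankyrin repeat protein that muscle makes on stretch or injury, was at 17, 39.6, 39.4, 73.8 and 63.8 CPM in T0. In T1 it ran from 35.5 to 1761 CPM with a median of 110, and in T2 from 27.1 to 175 with a median of 37.9. Library m6 held the 1761, and the next T1 library was at 160 CPM, so the groups overlapped apart from m6. XIRP1, a Xin repeat protein that gathers at sites of muscle damage and at myotendinous junctions, was at 56.1, 70.2, 53.9, 90.6 and 101 CPM in T0. It ran from 75.1 to 2110 CPM in T1 (median 135) and from 24.4 to 294 in T2 (median 60.2). The highest value was again in m6, and the next T1 library was at 174 CPM.

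The same library led 6 further genes. ATF3, a stress-induced transcription factor, was at 261 CPM in m6 and 21.3 CPM in the next T1 library. TRIB1, a pseudokinase, was at 46.2 CPM in m6 against 11.4 in the next, and RRAD, a small GTPase that restrains calcium channels, at 609 against 367. The remaining genes led by m6 were IER3, HSPB7 and RAB30, where it stood only slightly above the next. Without m6 the lesser gap stayed above 0.8 for ANKRD1 (1.41), HSPB7 (1.32) and IER3 (1.25). It was 0.79 for XIRP1, 0.76 for RRAD, 0.76 for TRIB1, 0.73 for RAB30 and 0.65 for ATF3. With m11 left out in place of m6, the gaps of XIRP1, RRAD, TRIB1, RAB30 and ATF3 had the same values. Those of RRAD and RAB30 were the same without m3 too. Falling below 0.8 was thus not particular to m6 for these genes. On the same values, 81 of the 91 genes had a gap of at least 0.8 without m6, 76 without m3 and 69 without m11, and all 91 gaps were positive each time.

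**Figure D3:**
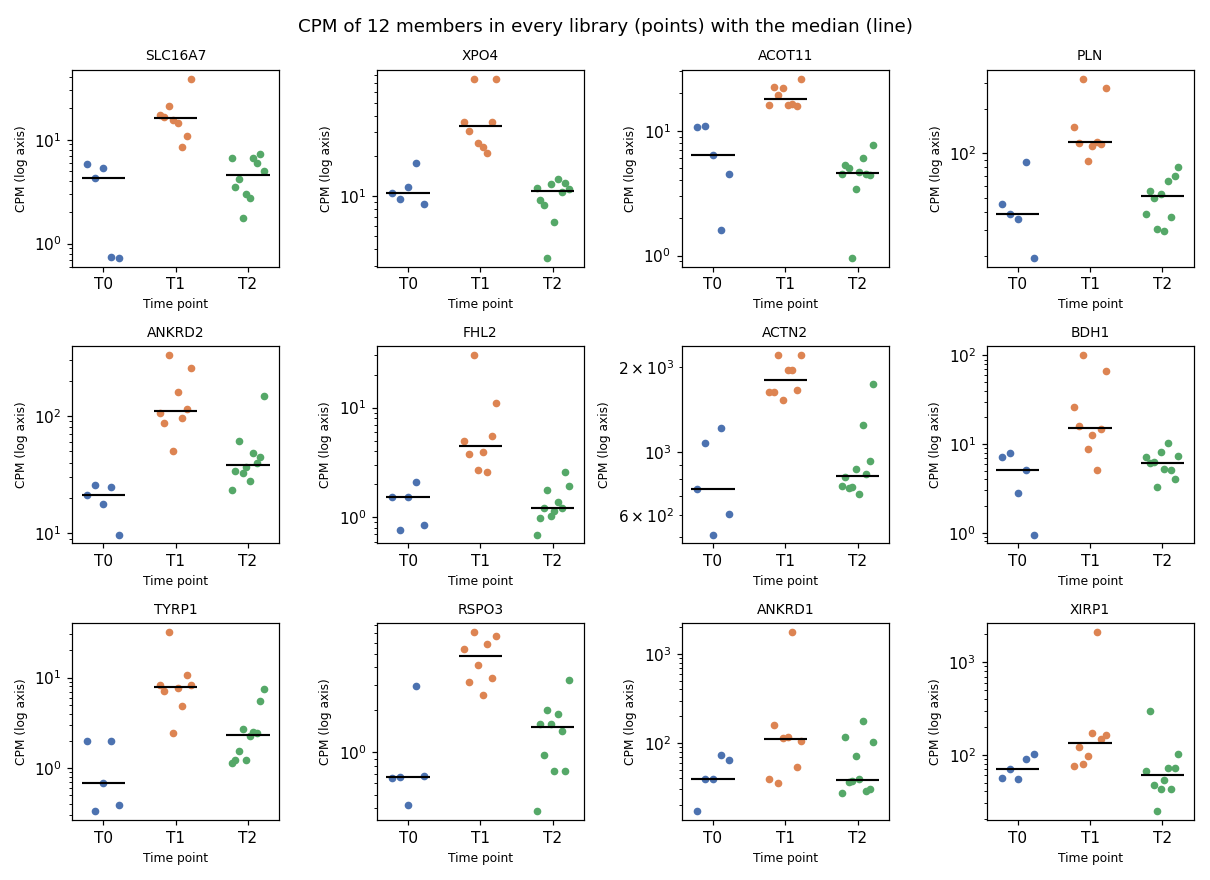
CPM on a log axis of 12 of the genes in every library of T0 (5), T1 (8) and T2 (10), each point a library and each line the median. SLC16A7, XPO4, ACOT11 and PLN in T1 lie above all libraries of the other time points, whereas ANKRD1 and XIRP1 overlap apart from T1 library m6, at 1761 and 2110 CPM.

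Regulators of calcium and excitability were 9 of the 91 genes. PLN encodes phospholamban, the brake on the slow calcium pump, and is on chromosome 10 from 66753396 to 66753717. It was at 45.1, 39, 35.8, 86.5 and 19.6 CPM in T0, from 89 to 319 in T1 (median 118) and from 29.9 to 80.8 in T2 (median 51). All T1 libraries lay above all T0 and T2 libraries, though T0 library m12 came near the lowest. The T0 mean was 45.2 ± 24.9 CPM (SD, n = 5), the T1 mean 162 ± 85.7 (SD, n = 8) and the T2 mean 51.0 ± 17.3 (SD, n = 10).

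S100A1, a calcium-binding protein that tunes the calcium pump and release channel, was at 58, 95.1, 93.7, 66.8 and 30.5 CPM in T0. It ran from 96.2 to 991 CPM in T1 (median 203) and from 49.3 to 174 in T2 (median 84.5). The lowest T1 library was only just above the highest T0 library, and m3 held the 991. RCAN2, an inhibitor of calcineurin, the phosphatase that favours slow fibre gene programmes, was at 4.46, 4.7, 7.58, 5.51 and 2.76 CPM in T0, from 8.36 to 29.8 in T1 (median 14.9) and from 3.23 to 11 in T2 (median 6.9). T1 and T0 did not overlap, and T1 and T2 did.

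CHRNA1, the alpha subunit of the acetylcholine receptor at the nerve-muscle junction, was at 6.51, 6.93, 9.94, 24 and 8.94 CPM in T0, from 16.1 to 55.5 in T1 (median 19.5) and from 5.77 to 14.1 in T2 (median 8.25). Here T1 separated from T2 but not from T0, where m12 was high. RRAD was at 46.8, 64.1, 65.7, 65.6 and 139 CPM in T0, from 107 to 609 in T1 (median 194) and from 38.8 to 266 in T2 (median 98.6). KCNIP2, a subunit of potassium channels, had a T1 median of 13.5 CPM against 5.8 in T2, and its T1 libraries lay above all T0 libraries. KCNMA1, the large-conductance potassium channel, STAC2, an adaptor of the calcium channel, and TECRL, an enzyme-like protein of the endoplasmic reticulum linked to cardiac rhythm, completed this group with T1 medians of 2.75, 6.69 and 21.3 CPM. Each of these 3 overlapped both other time points.

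Lipid enzymes gave another 9 genes. ACOT11, a thioesterase that releases fatty acids from their coenzyme A esters, was at 10.8, 11, 6.37, 1.59 and 4.5 CPM in T0, from 15.9 to 26.2 in T1 (median 17.9) and from 0.962 to 7.63 in T2 (median 4.6). All T1 libraries were above all others, and the lowest value belonged to m17. ACSL1, which activates long-chain fatty acids, was at 179, 162, 107, 91.4 and 99.9 CPM in T0, from 133 to 308 in T1 (median 246) and from 74.9 to 249 in T2 (median 141), so its groups overlapped. SLC27A1, a fatty acid transporter, was at 9.05, 11.7, 8.63, 7.42 and 14.7 CPM in T0, from 13.2 to 21.8 in T1 (median 16.4) and from 6.09 to 13.6 in T2 (median 8.86). It overlapped both.

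The enzymes of triglyceride assembly were GPAM and GPAT3, which add the first fatty acid to glycerol phosphate, and DGAT2, which adds the last. GPAM had all T1 libraries (17.7 to 69.9 CPM) above all T2 libraries (1.68 to 13.1) but overlapped T0, where m10 reached 24.6. GPAT3 had all T1 libraries (15.8 to 33.5 CPM) above all T0 libraries, and DGAT2 overlapped both, with a T1 median of 12.1 CPM. FITM2, which helps lipid droplets form, NCEH1, a cholesteryl ester hydrolase, and ACSF2, an acyl-CoA synthetase, had T1 medians of 3.85, 3.41 and 38.1 CPM. Of these 3, only NCEH1 separated from T0, and none separated from T2.

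The group of other fuel and mitochondrial genes was led by SLC16A7, the monocarboxylate transporter MCT2, which carries lactate, pyruvate and ketone bodies with high affinity. It lies on chromosome 6 from 76824896 to 76883398. SLC16A7 was at 5.82, 4.32, 5.31, 0.742 and 0.731 CPM in T0, from 8.49 to 38.7 in T1 (median 16) and from 1.76 to 7.29 in T2 (median 4.57). The T1 libraries lay above all others, and within T0 libraries m12 and m13 were far below the other 3. The T0 mean was 3.38 ± 2.48 CPM (SD, n = 5), the T1 mean 17.8 ± 9.28 (SD, n = 8) and the T2 mean 4.68 ± 1.92 (SD, n = 10).

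BDH1, the mitochondrial enzyme that interconverts the ketone bodies, was at 7.08, 8.03, 2.79, 5.09 and 0.956 CPM in T0, from 5.13 to 100 in T1 (median 15.4) and from 3.29 to 10.3 in T2 (median 6.19). T1 libraries m3 and m11, at 100 and 66.5 CPM, stood far above the rest, and the groups overlapped. ACSS1, which activates acetate in the mitochondrion, was at 13, 18.7, 16.9, 8.37 and 13.7 CPM in T0, from 18.1 to 107 in T1 (median 34.6) and from 7.11 to 18.3 in T2 (median 10.8). It overlapped both by a narrow margin. ADCK3, which supports synthesis of coenzyme Q, was at 681, 549, 547, 594 and 655 CPM in T0, from 733 to 1232 in T1 (median 1077) and from 488 to 983 in T2 (median 588), above every T0 library.

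PINK1, a kinase that marks damaged mitochondria for removal, was at 151, 153, 156, 159 and 209 CPM in T0, from 213 to 372 in T1 (median 274) and from 116 to 241 in T2 (median 152). All T1 libraries were above T0, by a small margin over m13. Complete separation from both time points was also seen for PFKFB2, which sets the level of a glycolytic activator (31.4 to 56.2 CPM in T1), AASS, an enzyme of lysine breakdown (19.4 to 48.1 CPM), and VWA8, a mitochondrial ATPase (71.1 to 94.9 CPM). ME3, mitochondrial malic enzyme, separated from T0, and PDK3, a kinase that slows pyruvate entry, from T2. MAOA, which breaks down monoamines, and the carriers SLC25A42 and SLC25A29 overlapped both, with T1 medians of 21.4, 8.6 and 3.08 CPM.

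Receptors and intracellular signalling proteins made up 16 genes. PTGER3, a prostaglandin E receptor, was at 5.65, 6.22, 8.05, 11.4 and 7.25 CPM in T0, from 13.1 to 46.6 in T1 (median 20.9) and from 4.32 to 15.5 in T2 (median 7.73). RASD2, a Ras-like GTPase, was at 1.39, 1.28, 1.05, 1.59 and 1.63 CPM in T0, from 2.87 to 8.26 in T1 (median 4.32) and from 0.664 to 3.06 in T2 (median 1.03). Both separated from T0, and in T2 the upper libraries reached the T1 range. PRKG1, the cyclic GMP-dependent kinase, had all T1 libraries (14.7 to 21.3 CPM) above T0 (4.5 to 8.4) and T2 (1.36 to 7.1). GAB2, a docking adaptor, and TNIK, a kinase, also separated from both, with T1 ranges of 9.49 to 18.1 and 31.7 to 47 CPM.

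RAB30, a GTPase of the Golgi, was above all T0 libraries in T1 (4.17 to 14.5 CPM), but its highest value of all was 28 CPM in T2 library m21. NPR3, the clearance receptor of natriuretic peptides, ranged widely in each time point, from 2.28 to 14.1 CPM in T1 and from 0.554 to 12 CPM in T2. A further 8 genes (INPP5J, PTPN3, PREX1, TRIB1, RASGRP1, PITPNM1, RASSF4 and CAB39L) overlapped both time points, with gaps between the medians of T1 and T0 from 0.88 for RASSF4 to 1.47 for INPP5J.

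Secreted and matrix proteins were 5 genes. RSPO3, an R-spondin that amplifies Wnt signals, was at 0.655, 0.665, 0.421, 2.97 and 0.675 CPM in T0, from 2.55 to 7.1 in T1 (median 4.79) and from 0.38 to 3.25 in T2 (median 1.5). The T0 libraries were low apart from m12, which fell inside the T1 range. DNER, a Notch ligand, was at 3.89, 2.18, 3.31, 4.56 and 1.74 CPM in T0, from 8.03 to 21.7 in T1 (median 11.4) and from 2.68 to 13 in T2 (median 4.1), and separated from T0. DKK2, a Wnt modulator, separated from T2 alone (2.29 to 8.15 CPM in T1 and 1.08 to 2.19 in T2). The matrix genes ADAMTSL5 and MMP11 overlapped both time points.

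Transcription and clock genes numbered 8. PRRX1, a homeobox factor of connective tissue cells, had all T1 libraries (13.7 to 24 CPM) above T0 (5.65 to 9.17) and T2 (5.8 to 12). CRY2, a repressor of the clock, was at 8.52, 9.45, 11.6, 8.9 and 15.7 CPM in T0, from 9.79 to 19.9 in T1 (median 18.7) and from 5.29 to 16.8 in T2 (median 10.6), with overlap. The stress genes ATF3 and IER3 overlapped both time points and were highest among T2 libraries in m15, at 21.6 and 19.1 CPM. MN1, HDAC11, a histone deacetylase, and ZBED1 overlapped both and had T1 medians of 13.6, 10.3 and 30.6 CPM.

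The remaining 20 genes had varied roles. TYRP1, a melanosome enzyme best known from pigment cells, had the widest gap to T0 of the 91. It was at 2.01, 0.332, 0.684, 2.01 and 0.394 CPM in T0, from 2.47 to 31.7 in T1 (median 7.96) and from 1.14 to 7.44 in T2 (median 2.34), above T0 in every T1 library. The pigment cell list had 1 identifier, MITF, at 11.47 to 13.15 CPM in T0, 13.58 to 18.18 in T1 and 8.5 to 14.18 in T2. MITF was lower in T2 than in T1 (edgeR quasi-likelihood test, adjusted p = 0.000198), and its part in the TYRP1 values was not tested.

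XPO4, a nuclear export receptor, was at 10.6, 9.55, 11.6, 17.6 and 8.72 CPM in T0, from 20.9 to 75.8 in T1 (median 33.2) and from 3.45 to 13.5 in T2 (median 10.9), above all other libraries. FAM151A was at 4.75, 4.89, 2.79, 1.7 and 1.57 CPM in T0, from 5.75 to 11.7 in T1 (median 8.14) and from 1.44 to 4.75 in T2 (median 2.94), also above all others. EML5 and MTSS1L separated from both time points as well. KIF21A, TM7SF3, ENTHD2 and TULP1 separated from T0 only, and ST8SIA5 from T2 only. The other genes of this group overlapped both, and DPYSL5, at the edge of the rule, ran from 1.21 to 6.78 CPM in T0, 2.92 to 11.7 in T1 and 1.33 to 9.23 in T2.

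The comparison of T2 with T0 sets the end of the season beside untrained horses. The same T0 and T2 libraries entered the rule, which asked for both medians to lie below T1 and so can favour genes with T0 and T2 close together. ANKRD2 alone was called. It rose by 1.32 ± 0.45 on the log2 scale (SE, edgeR quasi-likelihood test, adjusted p = 0.0476) and was above the T0 maximum of 25.7 CPM in every T2 library but m14. Over the 91 genes the median log2 fold change was 0.06, with 56 positive and 35 negative estimates from -0.81 for GPAM to 1.51 for RAB30. The background was 16% of all tested genes called, 6.73% higher and 9.3% lower, against 1.1% of the 91 genes. Since the choice of genes bears on this share, nothing is read from its distance to the background.

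The estimates of these genes were less precise than usual, with a median SE of 0.293 against 0.185 over all tested genes, and their median absolute log2 fold change was 0.226 against 0.273. At an unadjusted p below 0.05, 10 of the 91 (11%) passed against 32.1% of all tested genes. The nearest to the threshold were PROB1 at -0.70 ± 0.24 (SE, edgeR adjusted p = 0.0519), DKK2 at -0.61 ± 0.22 (adjusted p = 0.0589), RAB30 at 1.51 ± 0.55 (adjusted p = 0.0632) and AASS at -0.55 ± 0.21 (adjusted p = 0.0679). ME3 was at 0.55 ± 0.21 (adjusted p = 0.0764) and DNER at 0.84 ± 0.33 (adjusted p = 0.0791). TYRP1, with an estimate of 1.4 ± 0.63 (adjusted p = 0.126), and GPAM, at -0.81 ± 0.39 (adjusted p = 0.151), did not pass. DESeq2 called 4 of the 91 genes, against 20.1% of all tested genes: ANKRD2, DNER and RAB30 higher in T2, and PROB1 lower. The ANKRD2 call was kept in 6 of the 23 fits that left out a library each (without m3, m4, m11, m14, m15 or m19). Over the 23 fits its estimate stayed between 0.96 (without m23) and 1.44 and its adjusted p reached 0.126.

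**Figure D4:**
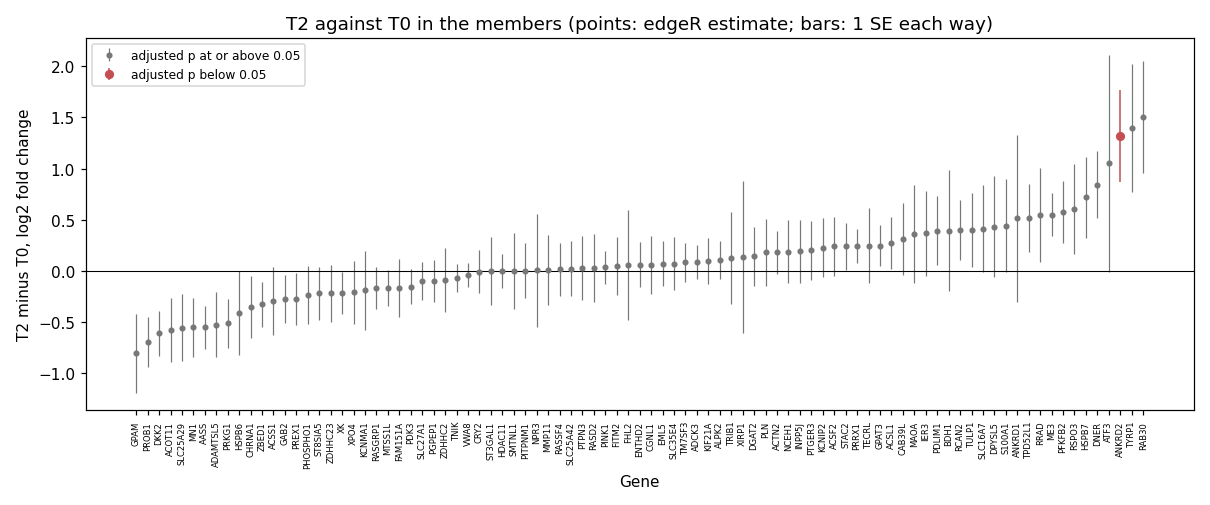
Log2 fold change between T2 and T0 of 89 of the 91 genes, sorted, as points with bars of 1 standard error each way. Most bars cross or come near 0. The gene in red, ANKRD2 at 1.32, is the only gene with an adjusted p below 0.05.

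By role, the median log2 change from T0 to T2 was 0.13 for stretch and Z-disc genes, 0.24 for calcium and excitation, 0.14 for lipid enzymes, 0.03 for other fuel and mitochondrial genes, 0.01 for receptors and signalling, 0.01 for secreted and matrix genes and 0.10 for transcription and clock genes. The median over all tested genes was -0.03. The counts of positive estimates were 8 of 11, 7 of 9, 6 of 9, 8 of 13, 10 of 16, 3 of 5 and 4 of 8 in the same order. These are descriptions of lists put together with the values known.

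Genes of the same pathways that the rule did not choose give the setting. Of 19 further slow fibre and Z-disc genes, 5 were higher in T1 than in T0 and none lower, and their median log2 difference was 0.50, while 6 were lower in T2 than in T1. Against T0, CRYAB, a small heat shock protein, was higher in T2 by 0.86 (edgeR quasi-likelihood test, adjusted p = 0.0103) and MYPN, a Z-disc protein, lower at -0.55 (adjusted p = 0.0458). Of 23 further genes of lipid use, 12 were higher in T1 than in T0, with a median of 0.65, and 11 were lower in T2 than in T1. In T2, 4 of these were called above T0: PLIN2, a lipid droplet coat protein, by 0.94, DECR1 by 0.57, ETFA by 0.49 and HADHA by 0.47. The last 3 act in fatty acid oxidation.

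Of 25 further mitochondrial energy genes, 6 were higher in T1 than in T0 and 12 were higher in T2 than in T0, with medians of 0.43 and 0.41. Of 26 further genes of glucose, glycogen and lactate use, 15 were lower in T1 than in T0 and 3 higher, with a median of -0.64, while 16 were higher in T2 than in T1. Over all tested genes 3.57% were higher and 3.34% lower in T1 than in T0, and 12.6% were higher in T2 than in T1. None of 26 genes on the list of calcium handling and excitation was chosen, and 3 of them were lower in T1 than in T0. That list did not hold PLN and S100A1, which were on the list of slow fibre and Z-disc genes. The nuclear receptor list held no chosen gene, and 2 of its 23 genes were higher in T1 than in T0, 10 were lower in T2 than in T1 and 6 were lower in T2 than in T0.

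The fibre score was compared with the chosen genes inside T1 and inside T2, where the difference between time points does not enter. The same T1 and T2 libraries entered the rule, however, and the slow identifiers of the score passed its thresholds. What the choice of genes adds to these relations was not tested. Within T1, the median Pearson r over the 91 genes was 0.53, and 69 of them had a positive r (75.8%), against 49.7% of all tested genes. Within T2, the median was 0.54 and all 91 were positive, against 49.0% of all tested genes. These values are descriptions over genes that share their libraries. Both time points were also taken without the 2 libraries farthest from the median score. In T1, 53 were positive (58.24%, median 0.17, without m3 and m11), against 50.75% of all tested genes. In T2, 74 were positive (81.32%, median 0.30, without m17 and m23), against 52.22% of all tested genes. With MYH7 alone in place of the score, 70 were positive in T1 (76.92%, against 49.55% of all tested genes). In T2, 77 were positive (84.62%, against 46.63%).

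**Figure D5:**
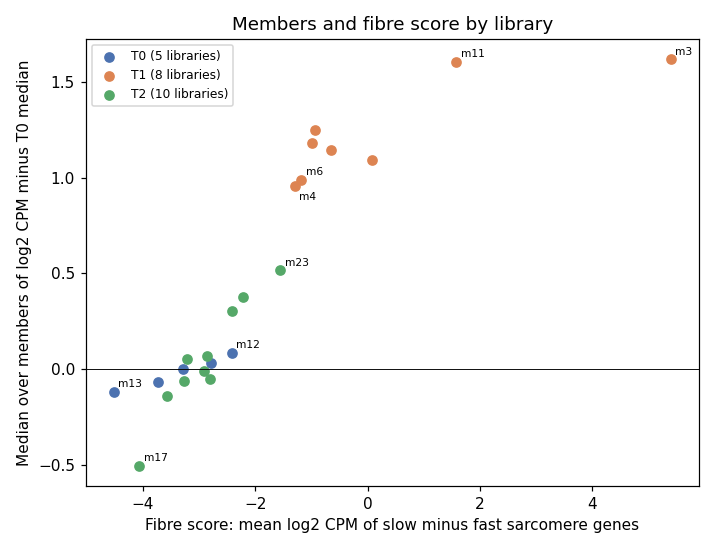
Fibre score of each library (horizontal axis) against the median over the 91 genes of log2 CPM minus the T0 median (vertical axis), for T0 (blue), T1 (orange) and T2 (green). The T1 libraries lie to the upper right of all others, from 0.96 to 1.62 on the vertical axis, with m3 far to the right. In T2 the order runs from m17 at -0.50 to m23 at 0.52.

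Of the 33 genes named by rule, each tested in both time points (66 relations, Benjamini-Hochberg adjusted together), 14 passed in T1 by Pearson's r and 2 by Spearman's rho. BDH1 had r = 0.89 (exact two-sided permutation p = 0.000124, adjusted p = 0.00308) and rho = 0.98 (exact permutation p = 0.000397, adjusted p = 0.0131) over the 8 T1 libraries. RCAN2 had r = 0.84 (exact permutation p = 9.9e-05, adjusted p = 0.00308) and rho = 0.93 (exact permutation p = 0.00223, adjusted p = 0.0341). PLN had r = 0.92 (exact permutation p = 0.000322, adjusted p = 0.00532) and rho = 0.86 (exact permutation p = 0.0107, adjusted p = 0.0707). In these 3 genes r without m3 and m11 was 0.85, 0.92 and 0.87, and they were the ones that passed when m3 was left out.

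The other 11 that passed in T1 were TYRP1, XPO4, ANKRD2, FHL2, PTGER3, ACSS1, S100A1, CHRNA1, PDLIM1, SMTNL1 and GPAT3, and none of them passed without m3, with 1 library fewer. Their r without m3 was 0.93 for XPO4, 0.90 for FHL2, 0.86 for PDLIM1 and 0.83 for GPAT3, so for these the lost call does not show that the relation rests on m3. It was 0.56 for S100A1, 0.52 for PTGER3 and 0.44 for TYRP1. FHL2 had r = 0.96 and rho = 0.86, and r = 0.64 without m3 and m11. Without m3 and m11, r went from 0.81 to 0.28 for ANKRD2 and from 0.89 to 0.33 for S100A1. It went from 0.88 to 0.40 for SMTNL1 and from 0.95 to -0.11 for CHRNA1. Without m3 alone, r was 0.74 for ANKRD2, 0.69 for SMTNL1 and 0.72 for CHRNA1. Leaving out m3 and m11 also narrows the range of the score, and what lowered r was not tested. Negative r in T1, short of the threshold, was found for ADCK3 (-0.68), ANKRD1 (-0.47), CRY2 (-0.45), SLC27A1 (-0.41), ATF3 (-0.38), XIRP1 (-0.36), IER3 (-0.21) and DNER (-0.18).

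Within T2, 4 genes passed by Pearson's r and 3 by Spearman's rho, over 10 libraries with 100000 permutations. ACTN2 had r = 0.88 (permutation p = 0.00014, adjusted p = 0.00308) and rho = 0.95 (permutation p = 0.00016, adjusted p = 0.0106). XPO4 had r = 0.80 (permutation p = 0.00425, adjusted p = 0.0239) and rho = 0.85 (permutation p = 0.00258, adjusted p = 0.0341). PLN had r = 0.84 (permutation p = 0.00192, adjusted p = 0.0181) and rho = 0.83 (permutation p = 0.00486, adjusted p = 0.0535). CHRNA1 had r = 0.78 (permutation p = 0.00851, adjusted p = 0.0377) and rho = 0.88 (permutation p = 0.0015, adjusted p = 0.033). Without m17 and m23 their r was 0.89, 0.93, 0.71 and 0.73 in the same order. PLN, XPO4 and CHRNA1 thus passed in both time points by Pearson's r. With MYH7 alone in place of the score, XPO4 had r = 0.22 in T2 (permutation p adjusted to 0.613) and CHRNA1 r = 0.62 (permutation p adjusted to 0.12), and neither passed, while ACTN2 and PLN did. ADCK3 had r = 0.70 in T2 (permutation p = 0.0246, adjusted p = 0.0738), the opposite sign to T1, and the difference was not tested.

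By role, the calcium and excitation genes were all positive in both time points, with a median r of 0.86 in T1 and 0.54 in T2. Without m3 and m11, 4 of the 9 were negative in T1: RRAD (-0.40), STAC2 (-0.15), KCNIP2 (-0.11) and CHRNA1 (-0.11). Without m17 and m23, S100A1 (-0.12) and STAC2 (-0.06) were negative in T2. Receptors and signalling genes had a median of 0.25 in T1, with 11 of 16 positive, and transcription and clock genes 0.24, with 5 of 8 positive. In T1 single genes ran from 0.96 for FHL2 to -0.86 for ADAMTSL5. No correlation was computed over the 5 T0 libraries, and m12, with the highest T0 score of -2.42, was the highest T0 library for 34 of the 91 genes.

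Female and male horses were compared with time point in the model. None of the 91 genes and none of all 11545 were called by edgeR (0%), while 15 of the 91 and 719 of all tested genes had an unadjusted p below 0.05. DESeq2 gave an adjusted p to 88 of the 91 and to 9288 genes in all, and called 0 and 12 of these. The estimate was higher in males for 71 of the 91 genes, with a median of -0.18 (female minus male, log2), against a median near 0 over all tested genes, of which 49.9% were positive. The smallest adjusted p was 0.615, for TPD52L1 at -0.70. The highest estimates in females were for ATF3 (1.68), XIRP1 (1.30) and ANKRD1 (1.22), with adjusted p from 0.78 to 0.81. Library m6, which led these 3 genes in T1, came from a female, as did m11 and m17, while m3 and m23 came from males. The 15 genes with an unadjusted p below 0.05 by edgeR became 27 without m11, against 780 of all tested genes. Without m3 they became 6, against 525.

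The chosen genes lay on 28 chromosomes, with 4 on X (XK, MAOA, PDK3 and ZBED1), 4.4% against 2.75% of the 7233 genes that met the rule's other conditions. FAM151A and ACOT11 are neighbours on chromosome 2, from 4955799 to 4968640 and from 4967839 to 4986000, and overlap by 802 bases. The annotated PLN lies within CEP85L, RASGRP1 overlaps FAM98B and RASSF4 overlaps C10orf10. No label states the strand setting of the counting, and reads of overlapping genes cannot be told apart. Further pairs of chosen genes within 1 Mb were PHOSPHO1 and ACSF2 on chromosome 11, SLC27A1 and PGPEP1, PGPEP1 and SLC25A42 on chromosome 21, and INPP5J and SLC35E4 on chromosome 8.

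Of the 91 genes, 9 had 2 or more annotated transcripts in the deposited table, and in 6 of them a transcript could be named. KCNIP2-201 held 72.8% of the gene's transcript count in T0, 74% in T1 and 73.8% in T2, with single libraries from 44.6% to 92.5%. In ACSL1, PDK3, PREX1, PTPN3 and TNIK the named transcript held 95.2% or more at each time point. Its lowest share in a single library was 68.8% for TNIK and 92.9% or more for the others. The share of KCNIP2-201 therefore differed little between time points beside its range over libraries.

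Depth bears on the weakest genes. The lowest count in any library was 6 for RSPO3 and NPR3 and 7 for TYRP1, MMP11 and SLC16A7, so the lowest values of these genes carry counting error. The spread between libraries of a time point was larger for these genes than for most, with a median SD of log2 CPM of 0.534 in T0, 0.494 in T1 and 0.528 in T2 against 0.313, 0.313 and 0.327 over all tested genes.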

How the data were processed

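RNA from needle biopsies of the gluteus medius was sequenced for 50 cycles in 6 technical repetitions, per the labels' protocols, and the libraries came from a kit that does not mark strand. FastQC, STAR, RSEM and DESeq2 are named in the submitters' processing notes, and versions, genome build and how repetitions were pooled are, in the sources used here, not given. The authors deposited expected counts from RSEM, whole numbers in the files, for 26991 gene identifiers. Their deposited comparison tables hold log2 fold changes, p-values, test scores and a mean normalized count signal under letters that no label ties to time points, so only symbols and coordinates were used.

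Genes were kept by filterByExpr in edgeR 4.0.16 (minimum count 10, minimum total count 15; 11545 genes with 99.93% of counts), scaled by TMM and fitted in 1 robust quasi-likelihood model of the 3 time points in R 4.3.3, with Benjamini-Hochberg adjustment and a threshold of 0.05. Log2 CPM used a prior count of 2. On simulated data, the test of T2 minus T0 recovered 83% of 100 genes changed 2-fold and 98% of 100 changed 4-fold. There were 7 false calls among 11471 genes. Recovery was not computed for the chosen genes, whose median SE was larger (0.293 against 0.185 over all tested genes). The simulated shares therefore do not give the chance of finding such a change in the chosen genes. Alternatives were median ratio factors, no filter, DESeq2 1.42.0, other fits and thresholds, and leaving out libraries; a thinned table was added after seeing the data.

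The genes, lists and roles were chosen with earlier results of these data known. Genes named with full values were the 12 with the largest lesser gap, the 12 with the highest T1 median, up to 4 of each pathway list, those called in T2 minus T0, and the 3 nearest the threshold on each side; this gave 33 of the 91, and other genes are given by role. Fold changes are on the log2 scale of the fit. Symbols of 88 of the 91 matched the RefSeq gene table. Promoter and protein sequences were not analysed here, and values of a few single genes are not reported here.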

Additional observations from a re-analysis of the deposited data

Results flagged for a closer look

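In 105 checks of a named gene or the fibre score within a time point, the highest or lowest library stood apart in 10 by Dixon's criterion (gap to the nearest library divided by the range, above the 95% critical value), where chance gives about 1 in 20. In T1, m6 was set apart for XIRP1 (0.749; 2110 CPM against 174 in the next library), ANKRD1 (0.615; 1761 against 160) and ATF3 (0.555; 261 against 21.3). Library m3 was set apart in T1 for CHRNA1 (0.571; 55.5 against 27.5 CPM), the fibre score (0.570; 5.40 against 1.58) and PTGER3 (0.535; 46.6 against 23.7 CPM). In T0, m13 was high for PINK1 (0.835; 209 against 159 CPM) and m12 for RSPO3 (0.778; 2.97 against 0.675 CPM). In T2, m17 was low for ACOT11 (0.603; 0.962 against 3.42 CPM) and m23 high for ANKRD2 (0.475; 147 against 61.2 CPM).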

How the results depend on the processing

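No paired analysis was possible because the labels give each library its own number and pair none across time points. The rule chose 161 genes with a gap of 0.6 and 47 with a gap of 1.0, and from 78 (without m11) to 98 (without m23) when a library was left out. Genes of the set called in T2 minus T0 numbered 1, against 16% of all tested genes. The count was 4 by DESeq2 (20.1% of all tested genes) and 2 in a fit that was not robust (16.2%). With no filter on low counts it was 0 (7.73%), and 9 had an unadjusted p below 0.05. It was 2 with only T0 and T2 in the fit (13.7%), 3 with sex as a covariate (15.1%) and 8 without m3 and m12 (25.2%). When single libraries were left out it ran from 0 to 5 (without m15, 19.6%). ANKRD2 had an adjusted p of 0.0804 without the filter. Over all tested genes, calls in T2 minus T0 went from 1851 to 2947 without m3 and m12, and ran from 986 (without m13) to 2414 (without m12) when a library was left out. For sex, all-gene calls were 0, against 12 by DESeq2 (of 9288 genes with an adjusted p) and 0 to 1 when a library was left out. The 14 named genes related to the fibre score in T1 became 3 without m3, and the 4 in T2 became 11 with MYH7 alone, of which 2 (PLN and ACTN2) were among the 4. With MYH7 alone r in T2 reversed for ATF3 from 0.222 to -0.092 and for ACSL1 from 0.61 to -0.053. Without m3 r in T1 reversed for RRAD from 0.34 to -0.0057. Where no value above shows it, the cause was not tested. Over all alternatives, 460 values kept their direction and side of the threshold or, for counts, stayed near the main count. Another 33 values lost the threshold and 30 gained it with the direction kept, while 34 counts moved further and 3 values reversed.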
